A study of Homo sapiens with 2 samples.

Results

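The 39 protein-coding HOX genes lie in 4 clusters, HOXA on chromosome 7, HOXB on chromosome 17, HOXC on chromosome 12 and HOXD on chromosome 2. They were taken by symbol out of the 20162 protein-coding genes of GENCODE release 44, in its version on GRCh37 (hg19). CHD4 peaks were assigned to a cluster when they overlapped the stretch from its first to its last HOX gene plus 20000 bp on either side. This gave 31 of the 60126 peaks of the deposited list, with 9 in the HOXA window, 7 in the HOXB window, 8 in the HOXC window and 7 in the HOXD window.

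The measurement was ChIP-seq for CHD4 in 501Mel, an established human melanoma cell line. There was 1 library of CHD4 ChIP and 1 of input chromatin, both from untreated cells fixed with 0.4% paraformaldehyde, and no replicate of either. The deposited list gives, for each region, how many times the ChIP signal exceeded the background (fold enrichment) and the −log10 of a p and a q value, all from the authors' peak caller. It holds no read counts, so the depth behind a peak is unknown here and no spread between replicates can be given. The identity of the cells could not be checked, since a peak list measures no expression.

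HOX genes encode homeodomain transcription factors that give cells their position along the body axis. Within a cluster they stand in the order in which they act, from paralogue group 1 at the anterior end to group 13 at the posterior end, and genes with the same number in different clusters are paralogues. CHD4 is the ATPase of the NuRD complex, which combines nucleosome remodelling with histone deacetylation and acts largely in repression. HOX clusters are rich in CpG islands, are textbook targets of Polycomb repression, and are divided by CTCF sites into separately regulated domains.

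Reference sequence of the regions that carry the results is given from the plus strand of GRCh37. The first holds the only match to the CTCF consensus among the 31 peaks, and the capitals mark that match. It lies between *HOXA7* and *HOXA9*.

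HOXA7 to HOXA9 interval, chr7:27200687-27200838: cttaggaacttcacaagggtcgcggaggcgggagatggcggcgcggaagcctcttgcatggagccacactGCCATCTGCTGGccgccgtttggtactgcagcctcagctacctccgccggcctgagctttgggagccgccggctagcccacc

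The next 3 are shown to compare CpG content, and capitals mark CpG dinucleotides. The first pair comes from the strongest peaks of the HOXB and HOXD windows, and the last from the peak over the start of *HOXD4*. Untranslated sequence was left out, so the strongest peak of the HOXA window, which lies wholly in a 3′ untranslated region, is not shown.

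HOXB3 intron, chr17:46665009-46665159: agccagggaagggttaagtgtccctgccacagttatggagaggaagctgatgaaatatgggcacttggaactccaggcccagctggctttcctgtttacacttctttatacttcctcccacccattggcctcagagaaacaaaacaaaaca

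EVX2 to HOXD13 interval, chr2:176951017-176951316: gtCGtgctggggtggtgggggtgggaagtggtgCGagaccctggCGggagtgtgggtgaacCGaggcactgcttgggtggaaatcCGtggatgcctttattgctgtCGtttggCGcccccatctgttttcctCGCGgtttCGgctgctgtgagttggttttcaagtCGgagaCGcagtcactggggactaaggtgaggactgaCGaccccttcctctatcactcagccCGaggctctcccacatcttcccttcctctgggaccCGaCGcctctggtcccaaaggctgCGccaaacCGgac

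HOXD4 upstream, chr2:177016068-177016277: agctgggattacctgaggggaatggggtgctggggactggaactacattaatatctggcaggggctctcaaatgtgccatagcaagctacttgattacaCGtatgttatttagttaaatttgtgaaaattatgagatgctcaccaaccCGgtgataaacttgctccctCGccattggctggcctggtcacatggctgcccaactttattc

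The stretch from the *HOXB3* intron has 0 CpG dinucleotides in 151 bp. The stretch between *EVX2* and *HOXD13* has 18 in 300 bp, and that before *HOXD4* has 3 in 210 bp. The *HOXD4* stretch is only part of its peak of 325 bp. In the 250 bp on either side of the centre of the whole peak, the ratio of observed to expected CpG was 0.56 at *HOXD4*. It was 0.54 for the peak between *EVX2* and *HOXD13* and 0.06 for that in the *HOXB3* intron. The strongest peaks of the HOXB and HOXD windows thus stood on sequence of very different CpG content.

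A final pair is shown for homeodomain-type letters. In the first, from a peak between *HOXB9* and *HOXB13*, capitals mark a pair of adjoining TAATTA matches. In the other, from a peak beyond *HOXD1*, they mark 1 TAATTA match and 1 match to ACAAAG, the core bound by SOX factors, which reads as its reverse complement on this strand. The stretch between *HOXB9* and *HOXB13* also holds a match to ACAAAG in reverse complement, from 46749498 to 46749503, left in lower case.

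HOXB9 to HOXB13 interval, chr17:46749482-46749599: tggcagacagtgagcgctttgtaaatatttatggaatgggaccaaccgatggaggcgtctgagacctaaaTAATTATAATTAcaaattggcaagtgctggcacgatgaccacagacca

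Beyond HOXD1, chr2:177057921-177058209: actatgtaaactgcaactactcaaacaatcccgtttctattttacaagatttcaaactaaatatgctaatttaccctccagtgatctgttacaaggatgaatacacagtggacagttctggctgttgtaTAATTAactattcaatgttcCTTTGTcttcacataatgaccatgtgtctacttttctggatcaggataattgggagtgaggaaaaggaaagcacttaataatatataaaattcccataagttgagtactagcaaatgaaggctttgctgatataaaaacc

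In the HOXA window, which spans 147099 bp, the 9 peaks were spread among the anterior and middle genes and over *HOXA13*, and left the genes from *HOXA9* to *HOXA11* bare. *HOXA2* and *HOXA7* also had no peak in the gene or within 1000 bp of a start. The strongest peak of all 31, on hg19 from 27236055 to 27236213, is 159 bp long and lies wholly in the last exon of *HOXA13*, in its 3′ untranslated region. Its fold enrichment was 4.20 and its −log10 q was 5.29, and 96.7% of all peaks had a lower fold enrichment. It was the only peak of the 4 windows with a −log10 q of at least 5. *HOXA13*, which patterns the limb ends and the urogenital tract, had a further peak of 240 bp centred 521 bp before its canonical start, enriched 2.84-fold at a −log10 q of 1.76. That peak also lies within *HOTTIP*, a long noncoding RNA transcribed away from *HOXA13*.

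The longest peak of the window, 1714 bp, covers the start and 660 bp of exons of *HOXA5*, enriched 3.24-fold at a −log10 q of 2.80. *HOXA4* had a peak of 196 bp centred 435 bp before its start, with the lowest fold enrichment of all 31, 2.55, and a −log10 q of 1.23. *HOXA6* had a peak of 517 bp, with a fold enrichment of 2.96, at a start that is not its canonical one.

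The peak with the CTCF match lies between genes, on hg19 from 27200472 to 27201110, and is 639 bp long. Its fold enrichment was 3.65 and its −log10 q was 3.95, and 85.8% of all peaks had a lower fold enrichment. The match lies 34 bp from the peak's centre, from 27200757 to 27200768. The interval between *HOXA7* and *HOXA9* is known as a CTCF boundary in other cells, and CTCF binding was not measured in the data used here. A further peak lies in an intron of *HOXA3*, with a fold enrichment of 2.78. The longest stretch without a peak was 34944 bp and held the canonical starts of *HOXA9*, *HOXA10* and *HOXA11*.

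In the HOXB window, of 240225 bp, 5 of the 7 peaks lay between *HOXB3* and *HOXB8* and the other pair in the long interval before *HOXB13*. The longest, 2453 bp, runs over the start of *HOXB7* and covers 499 bp of its exons and 1672 bp of its introns, enriched 3.33-fold at a −log10 q of 2.26. A second peak, of 303 bp and centred 1042 bp before the same start, had a fold enrichment of 2.94 and also lies within *HOXB8*. A peak of 490 bp, with 2.92, lies 486 bp before the start of *HOXB6* and counts for *HOXB3* as well, through a start of that gene that is not its canonical one. A peak of 207 bp in an intron of *HOXB6*, with 2.78, lies 1988 bp after that start. *HOXB6* to *HOXB8* are genes of the trunk, and each of the peaks named for them was enriched less than 3.5-fold.

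The strongest peak of the window, on hg19 from 46665009 to 46665159, lies in an intron of *HOXB3*, 2519 bp into the canonical transcript. It is 151 bp long, the shortest length in the list, and was enriched 3.86-fold at a −log10 q of 3.76. The pair before *HOXB13* lies in introns of the noncoding RNA *LINC02086*, at 45715 bp from the start of *HOXB9* and 50234 bp from that of *HOXB13*. Their fold enrichments were 3.60 and 3.59, higher than 84.0% and 83.4% of all peaks. No peak lay in the first 79121 bp of the window, which hold the canonical starts of *HOXB1*, *HOXB2* and *HOXB4*.

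In the HOXC window, of 157200 bp, all 8 peaks lay inside the cluster, from *HOXC10* to *HOXC4*. The strongest, of 678 bp on hg19 from 54378526 to 54379203, covers the start of *HOXC10* and 274 bp of its exons, enriched 3.93-fold at a −log10 q of 3.98. A peak of 396 bp covers the start of *HOXC9*, with 3.44 and 2.45. Each of these also overlaps a noncoding RNA of the opposite strand, *HOXC-AS3* and *HOXC-AS1*. The longest peak of the 31, of 3085 bp, lies between *HOXC8* and the canonical start of *HOXC6*, on hg19 from 54409975 to 54413059. It was enriched 3.22-fold at a −log10 q of 2.06, and it lies within 1000 bp of upstream starts of *HOXC4* and *HOXC6*, not their canonical ones.

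The other 5 peaks lay inside the long gene model of *HOXC4*, which covers 39100 bp. A peak of 1098 bp, with a fold enrichment of 3.30, is centred 618 bp before the canonical start of *HOXC4*, and 1 of 233 bp, with 2.97, is centred 897 bp after it. The remaining 3 lay between *HOXC5* and that start, with fold enrichments of 2.95, 3.03 and 3.21. The window's first 65911 bp held no peak, and with them the starts of *HOXC11*, *HOXC12* and *HOXC13*. *HOTAIR*, the noncoding RNA of that stretch known for its tie to Polycomb, was 9786 bp from the nearest peak.

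In the HOXD window, of 138187 bp, 3 of the 7 peaks lay in the flanks, and 2 of the 7 had a −log10 q of at least 2. The strongest, of 430 bp on hg19 from 176950952 to 176951381, lies between *EVX2* and *HOXD13*, 6283 bp before the start of *HOXD13*, enriched 3.61-fold at a −log10 q of 2.81. Inside the cluster, a peak of 325 bp covers the start of *HOXD4*, with 3.13 and 1.81. A peak of 603 bp, with 3.08, lies at an upstream start of *HOXD3*, and 1 of 913 bp in an intron of the same gene model had 3.45 and a −log10 q of 2.44. The others lay between *HOXD13* and *HOXD12*, with 2.91, and beyond *HOXD1*, with 2.73 and 2.98. None of the genes from *HOXD8* to *HOXD13*, several of which pattern the limb and the genitalia, had a peak within 1000 bp of a start.

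**Figure D1:**
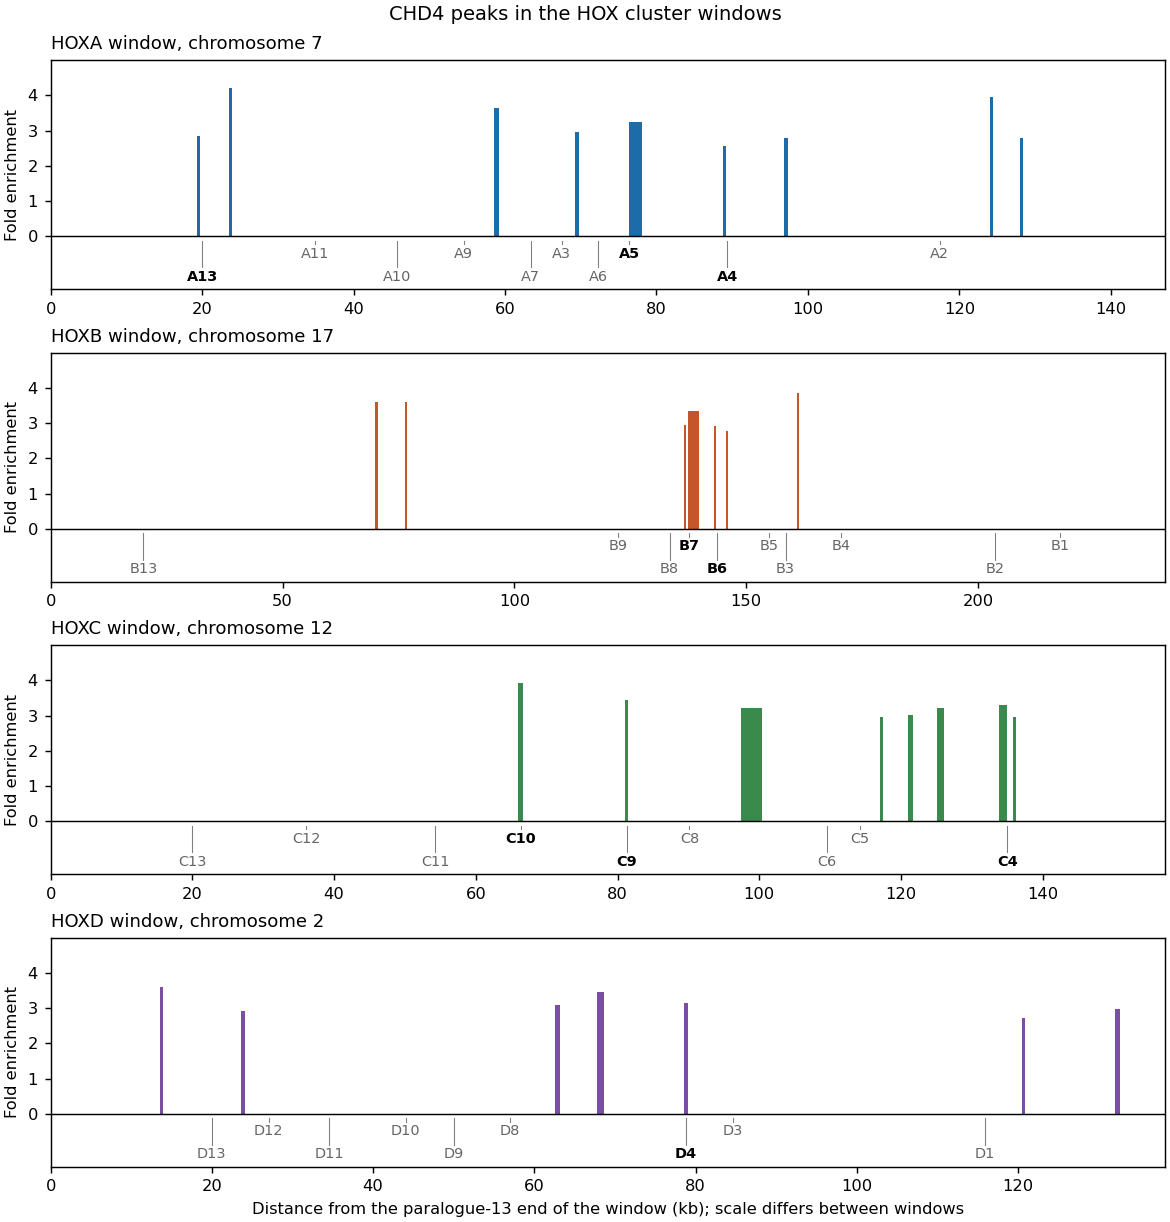
Fold enrichment of each CHD4 peak (bar height, with a true zero; bar width is the peak's length, drawn at no less than a fixed minimum) along each HOX window, in kb from its paralogue-13 end, with the canonical start of each HOX gene below the axis and in bold where a peak lies within 1000 bp of it (1 gene is not labelled). Bars stand between 2.55 and 4.20, with the longest bare stretch, of 79121 bp, at the *HOXB1* end of HOXB.

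A promoter was taken as the 1000 bp on either side of any annotated start of a gene. By this measure 14 of 39 HOX genes had a CHD4 peak, or 35.9% (Wilson 95% interval 22.7% to 51.6%), against 42.4% of all protein-coding genes. The HOX share was close to the background, and its interval included it. By cluster the genes with a promoter peak numbered 5 of 11 in HOXA, 3 of 10 in HOXB, 4 of 9 in HOXC and 2 of 9 in HOXD, and the intervals of these shares overlap widely. The intervals cover counting error and treat genes as independent, although neighbouring HOX genes can share a peak.

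With the canonical start alone, 10 HOX genes had a peak, or 25.6% (14.6% to 41.1%), against 34.6% of all protein-coding genes. The genes that had a promoter peak through another start alone were *HOXA6*, *HOXB3*, *HOXC6* and *HOXD3*. Over the canonical start itself lay peaks at 5 genes, *HOXA5*, *HOXB7*, *HOXC9*, *HOXC10* and *HOXD4*. When a −log10 q of 2 or more was asked of the peak, 9 genes or 23.1% (12.6% to 38.3%) had a promoter peak, against 27.8%. *HOXA13* was among them only through the peak in its 3′ untranslated region. Under each of these measures the HOX share was below the background and its interval held it. Within 5000 bp of a start the order turned, with 59.0% of HOX genes (43.4% to 72.9%) against 54.3%.

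A peak in the gene or the 2000 bp before its start was found for 16 HOX genes, or 41.0% (27.1% to 56.6%), against 58.3% of all protein-coding genes. This share was below the background and its interval ended short of it. In the gene alone, 38.5% of HOX genes (24.9% to 54.1%) stood against 50.8%, and that interval held the background. HOX genes are short, with a median of 4216 bp against 27220 bp for all protein-coding genes, and a long gene has more room for a peak. The part of gene length in this difference was not tested. The gene models of *HOXA3*, *HOXB3*, *HOXC4*, *HOXC6* and *HOXD3* span neighbouring genes, so a peak within them cannot be given to a single gene.

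Among other genes laid out in clusters, 2 of 55 keratin genes, or 3.64% (upper end of the interval 12.3%), and 1 of 53 clustered protocadherin genes, or 1.89% (upper end 9.94%), had a promoter peak. Both intervals lay below that of the HOX genes. In the gene or the 2000 bp before it, a peak was found for 22 protocadherin genes, or 41.5% (29.3% to 54.9%), beside 41.0% of the HOX genes, and for 4 keratin genes, or 7.27%. The median gene length was 110198 bp for the protocadherins. Here too the intervals treat genes as independent, although neighbouring genes can share a peak. Of the keratin genes 1.82% and of the protocadherin genes 3.77% had a CpG-rich promoter as defined for the HOX genes below, against 64.1% of the HOX genes.

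**Figure D2:**
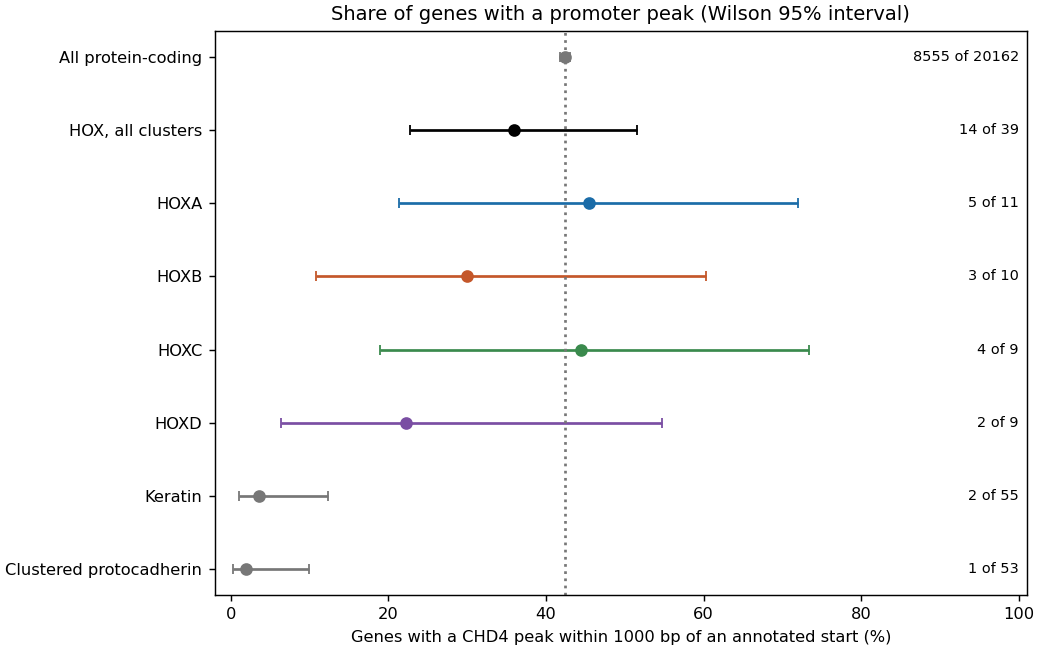
Share of genes with a CHD4 peak within 1000 bp of an annotated start (points, in percent) with Wilson 95% intervals (bars), for all protein-coding genes, the HOX genes by cluster, and keratin and clustered protocadherin genes; counts stand at the right and the dotted line marks all protein-coding genes. The HOX point, at 35.9%, has an interval that crosses the line at 42.4%, and the keratin and protocadherin intervals end at 12.3% and 9.94%.

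Read across the clusters by paralogue number, promoter peaks were most frequent in the middle groups. This grouping was chosen after the positions of the peaks had been seen. In groups 4 to 8, 8 of 15 genes had a promoter peak, or 53.3% (30.1% to 75.2%). In groups 1 to 3 there were 3 of 8, or 37.5% (13.7% to 69.4%), and in groups 9 to 13 there were 3 of 16, or 18.8% (6.59% to 43.0%). The 3 intervals overlap, and each holds the background of 42.4%.

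Only group 6 had a promoter peak at every member, *HOXA6*, *HOXB6* and *HOXC6*, and at the canonical start this held for *HOXB6* alone. In group 4 a promoter peak was found at 3 of 4 members, *HOXA4*, *HOXC4* and *HOXD4*, each at the canonical start, and the nearest peak to the start of *HOXB4* was 9297 bp away. Groups 2, 8, 11 and 12 had none. In group 13, 1 of 4 members, *HOXA13*, had a promoter peak, and the starts of *HOXB13*, *HOXC13* and *HOXD13* were 49911, 45911 and 3669 bp from a peak. Paralogues thus differed among themselves in every group but 2, 6, 8, 11 and 12.

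The distance from the canonical start to the nearest peak had a median of 4525 bp over the 39 genes, from 0 bp to 56636 bp at *HOXB1*. Of the 25 genes without a promoter peak, those with the longest distances were *HOXB1*, *HOXB13*, *HOXC13* and, at 42538 bp, *HOXB2*.

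**Figure D3:**
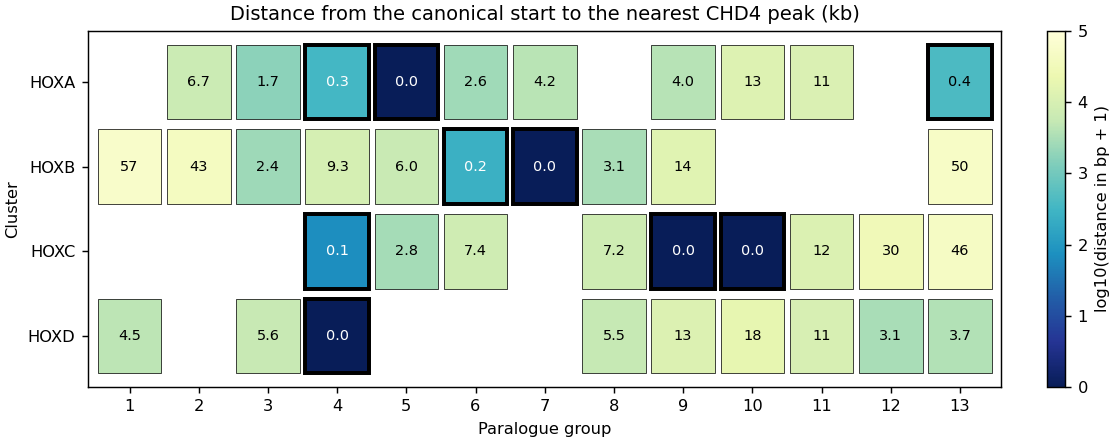
Distance in kb from each HOX gene's canonical start to the nearest CHD4 peak (number and colour, on a log10 scale), with clusters in rows, paralogue groups in columns and blanks where no gene exists or none is shown; thick frames mark a peak within 1000 bp of the canonical start. The frames belong to genes of all 4 clusters, and the largest distance is that of *HOXB1*.

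Against all peaks, those of the HOX windows were of middling strength and short. Their fold enrichment ran from 2.55 to 4.20 with a median of 3.13, against a median of 3.09 over all peaks, and 54.2% of all peaks lay below the HOX median. The −log10 q had a median of 2.06, against 1.97, and 16 peaks, or 51.6% (34.8% to 68.0%), had one of at least 2, against 48.5% of all peaks. The median length was 430 bp, against 613 bp. Peaks within 1000 bp of a HOX start had a median fold enrichment of 3.17 over 16 peaks, and the 15 away from every HOX start one of 3.03. The 10 peaks that stood above 75% of all peaks by fold enrichment came from all 4 windows.

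**Figure D4:**
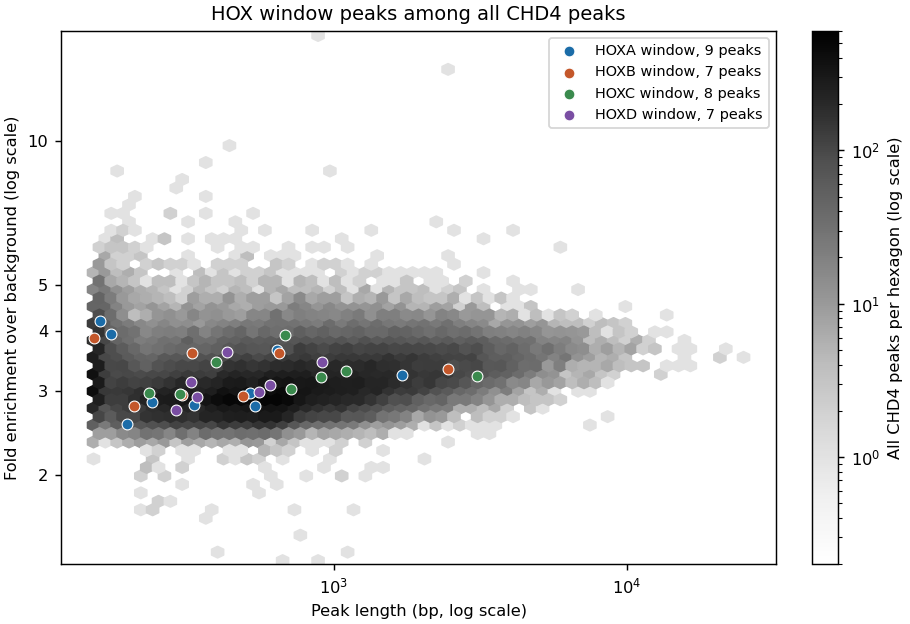
Length (x axis, bp, log scale) and fold enrichment over the background (y axis, log scale) of the 31 HOX window peaks (coloured points) over all CHD4 peaks (grey hexagons, darker for more peaks). The HOX points lie within the bulk of the list, none above a fold enrichment of 4.20.

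By position, 16 of the 31 peaks, or 51.6% (34.8% to 68.0%), lay within 1000 bp of a protein-coding start, against 17.7% of all peaks. The interval lies above the background. The windows hold 10 to 12 canonical protein-coding starts each in 138187 to 240225 bp, so starts are close together in them, and the part of that density was not tested. The centre of the peak lay in an exon of any annotated gene for 6 peaks, or 19.4%, in an intron for 19, or 61.3%, and between genes for 6, or 19.4%. The shares over all peaks were 8.91%, 59.3% and 31.8%.

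Peak density in the windows was 4.54 per 100000 bp, against 1.94 over the whole genome. By cluster it was 6.12 in HOXA, 5.09 in HOXC, 5.07 in HOXD and 2.91 in HOXB. The surroundings differed too. In the 1000000 bp on either side, the density was 6.45 for HOXA, 4.50 for HOXC and 4.30 for HOXB, so that HOXA and HOXC were near their neighbourhood and HOXB was below it. Around HOXD it was 1.80, below the density of the window itself. With 1 library, copy number and local background cannot be told apart from CHD4 occupancy in these densities.

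Windows of the same size laid end to end over chromosomes 1 to 22 and X give the same comparison as a rank, with no test. At least as many peaks as in the HOXA window were found in 11.4% of windows of its size. The same share was 29.3% for HOXB, 15.4% for HOXC and 15.7% for HOXD. Among windows with at least as many canonical protein-coding starts, the shares were 60.0%, 83.6%, 63.4% and 72.7%, in the same order. For their number of starts the HOX windows were thus not rich in peaks, and HOXB held 7 where such windows had a median of 12.0.

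HOX promoters were CpG-rich more often than others at the usual limit, and not clearly so at a stricter one. A promoter was called CpG-rich with a GC share of at least 55% and a ratio of observed to expected CpG of at least 0.6 in the 1000 bp on either side of the canonical start. This held for 25 of 39 HOX genes, or 64.1% (48.4% to 77.3%), against 39.7% of all protein-coding genes. With a ratio of at least 0.75 it held for 28.2% (16.5% to 43.8%), against 21.2%, and that interval held the background. Among CpG-rich promoters, 8 of 25 HOX genes, or 32.0% (17.2% to 51.6%), had a peak at a start, against 51.5% of all such genes. The upper end of the HOX interval lies just above that background. Among promoters that were not CpG-rich, 6 of 14 HOX genes, or 42.9% (21.4% to 67.4%), had a peak, against 36.5% of the other genes of that kind.

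Within the HOX genes, those with and without a promoter peak had much the same composition. The median ratio of observed to expected CpG was 0.66 over the 14 genes with a peak and 0.71 over the 25 without. Over all protein-coding genes the medians were 0.68 with a peak and 0.57 without, the opposite order. Composition was taken at the canonical start, and the peak at any start. *HOXA6*, *HOXB3*, *HOXC6* and *HOXD3*, with ratios of 0.55, 0.25, 0.34 and 0.70, thus count as having a peak without one at the promoter measured. The part of this mismatch in the order was not tested. The CpG-rich promoters without a peak numbered 17. They included *HOXD8*, with the highest ratio of all 39 genes, 0.95, and *HOXA9*, with 0.88. In HOXD, 8 of 9 promoters were CpG-rich and 2 genes had a promoter peak.

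**Figure D5:**
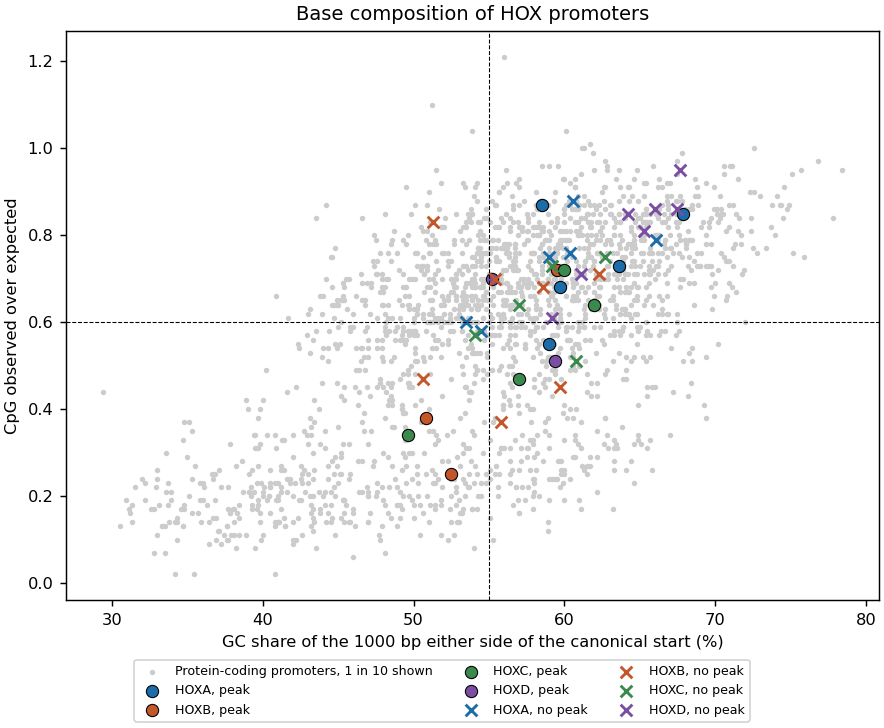
GC share in percent (x axis) and ratio of observed to expected CpG (y axis) in the 1000 bp on either side of the canonical start, for HOX genes with a promoter peak (filled circles) and without (crosses), over 1 in 10 of all protein-coding genes (grey); dashed lines mark the limits for CpG-rich promoters, 55% and 0.6. Filled circles and crosses are mixed, and 17 crosses lie above both limits.

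The peaks themselves were GC-rich beside the list as a whole. In the 250 bp on either side of the centre the median GC share was 54.9%, from 35.9% to 66.3%, against 43.5% over all peaks, and the median ratio of observed to expected CpG was 0.42 against 0.21. The medians by window were 59.5% in HOXA, 56.3% in HOXB, 53.9% in HOXC and 45.5% in HOXD.

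Motifs were counted on both strands within the same 250 bp, and the shares over all peaks are given as the background. The CTCF consensus was present in 1 peak, the one between *HOXA7* and *HOXA9*, or 3.23% (0.572% to 16.2%), against 1.49%. TGACTCA, the AP-1 site, was present at 1 peak, against 10.8%, and there it lay outside the peak itself. TCATGTG, the M-box bound by the melanocyte regulator MITF, was present at 0 of 31 peaks, against 11.0%. A count of 0 allows up to 9.68% by 3 counts of 31, below the background, and up to 11.0% by the Wilson interval, level with it. The 2 limits thus do not settle whether the share near the centre differed from the background. Searched over the whole peak, the M-box was found in 1, the long one before *HOXC6*. That was 3.23% (0.572% to 16.2%), against 17.1%, and its interval ended below that background. ACAAAG, the core of SOX sites, was present at 6 peaks, or 19.4% (9.19% to 36.3%), against 37.7%, and its interval ended below that background. TAATTA, a homeodomain core, was present at 6 peaks, also 19.4%, against 15.7%. Over the whole peak the shares were 3.23% against 1.52% for CTCF, 22.6% (11.4% to 39.8%) against 46.6% for ACAAAG and 22.6% against 23.1% for TAATTA, and 0% against 17.1% for TGACTCA.

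No match to any of the 5 motifs was found at 22 of the 31 peaks, or 71.0% (53.4% to 83.9%), against 41.9% of all peaks. TAATTA, which reads the same on both strands and was counted once, lay 11 bp from the centre of the peak over the start of *HOXC9* and 38 bp from that of the peak over the start of *HOXC10*. A short motif with A and T is met less often in GC-rich sequence, and the part of base composition in the counts was not tested. Nor was that of peak length in the search over whole peaks, where a shorter peak has less room for a match. The median length was 430 bp in the HOX windows, against 613 bp.

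Of the 48 other annotated genes of the windows, 12 had a peak within 1000 bp of a start (Wilson interval 14.9% to 38.8%), against 21.1% of all annotated genes. A peak in the gene was found for 13, or 27.1% (16.6% to 41.0%), against 25.4%. Long noncoding RNAs made up 31 of them, 10 with a peak at a start, or 32.3% (18.6% to 49.9%), against 19.0% of all such genes. A peak in the gene was found for 12 of them, or 38.7% (23.7% to 56.2%), against 28.1%. An RNA that begins opposite a HOX gene can share its peak. None of the 7 miRNA genes of the windows had a peak at a start or in the gene, against 8.18% and 2.92% of all miRNA genes, and 7 genes are too few to show a difference from these shares. The nearest peaks lay 928 bp from *MIR10B*, 1830 bp from *MIR615*, 6319 bp from *MIR196A2*, 7989 bp from *MIR196B* and 20280 bp from *MIR196A1*. The miRNAs of *MIR10B*, *MIR196A1*, *MIR196A2* and *MIR196B* are known to target HOX transcripts. Of the even-skipped homologues, *EVX2* lay 2262 bp from a peak, and *EVX1*, which starts 22609 bp beyond the end of the HOXA window, 41968 bp.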

How the data were processed

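CHD4 ChIP and input chromatin of 501Mel cells were sequenced as single reads, 1 library each. The authors mapped reads to hg19 with Bowtie, kept reads that mapped best to 1 place only, and used the broad mode of MACS2 (version 2.1.1.20160309 in the submitters' processing notes) after reads were extended to the fragment length. The paper's reporting summary gives a q setting that equals a −log10 q of 2. In the deposited list 48.5% of all peaks, and 51.6% of those in the HOX windows, reached that value. The deposited list gives per region the authors' fold enrichment over the background, a ratio, the −log10 p and −log10 q, and a score, which follows from the −log10 q and was not used. Whether the caller compared the ChIP with the input is not given in the sources used here.

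Peaks on chromosomes 1 to 22, X and Y, 60123 in all, were compared with GENCODE release 44 mapped to GRCh37 and with its sequence, counting from 1, at an overlap of 1 bp. Canonical starts are those tagged in the annotation. Windows with over 10% unsequenced bases were left out of the tiling. HOX genes with a peak, the strongest peaks and the paralogue groups at the extremes were named by rule. The members, lists and motifs were chosen with earlier results of these data known. 1 HOX gene is kept in the counts and not otherwise reported here, and some sequences are not printed. No test was made, since there is 1 library of each kind. Shares carry Wilson 95% intervals for counting error, and genes or peaks do not stand for replicates. The overlap, merging and motif functions were tested on simulated data. The work was done in Python 3.11.15 with pandas 2.3.3, numpy 2.4.6, pysam 0.24.0, scipy 1.17.1 and matplotlib 3.10.9, and with samtools 1.23.1.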

Additional observations from a re-analysis of the deposited data

How the results depend on the processing

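No paired analysis was possible because neither the ChIP nor the input has a second library. Of 66 alternatives to 20 results, 34 stayed within 1.5 times the count or within the interval of the share, and 32 did not. That interval is narrow for shares over all genes, peaks or genome windows, and wide for HOX genes and HOX window peaks. The tally therefore depends on the size of each set and does not measure how firm the HOX shares are. The cause was not tested except where fewer peaks or wider regions give it by construction.

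Of the 31 peaks, 16 had a −log10 q of at least 2 and 1 had one of at least 5. By window these were 5 and 1 of 9 in HOXA, 4 and 0 of 7 in HOXB, 5 and 0 of 8 in HOXC, and 2 and 0 of 7 in HOXD. Flanks of 50000 bp gave 11 peaks in HOXB and 12 in HOXD, and no flank gave 4 in HOXD.

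The share of HOX genes with a promoter peak, 35.9%, became 59.0% within 5000 bp and 2.56% at a −log10 q of 5 or more. The latter was *HOXA13* alone, through the peak in its 3′ untranslated region, near a start that is not its canonical one. The share of all protein-coding genes, 42.4%, became 54.3% and 2.23% under the same settings, so that the HOX share came to stand above it, with intervals (43.4% to 72.9% and 0.454% to 13.2%) that hold it. It became 38.0% within 500 bp, where the HOX share was 33.3%, 34.6% at the canonical start, 27.8% at a −log10 q of 2 or more, 44.9% on the same 4 chromosomes and 51.5% among CpG-rich promoters. Among CpG-rich promoters at the canonical start, tried only once the data had been seen, the shares were 28.0% (14.3% to 47.6%) for HOX genes and 41.9% for all, an interval that holds the background.

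The share of all protein-coding genes with a peak in the gene or upstream, 58.3%, became 50.8% in the gene alone and 43.2% at a −log10 q of 2 or more. The HOX shares were then 38.5% (24.9% to 54.1%) and 30.8% (18.6% to 46.4%), and both intervals hold the background, unlike that of the 41.0% reported. The share of peaks below the median HOX window peak, 54.2%, became 44.4% among peaks at protein-coding promoters and 52.6% among peaks of similar length. The share of windows with at least as many peaks became 60.0% for HOXA, 83.6% for HOXB, 63.4% for HOXC and 72.7% for HOXD with at least as many starts. Counted anywhere in the peak, the AP-1 share became 0% (0% to 11.0%), against 17.1% of all peaks. With a CpG ratio of at least 0.75, 28.2% of HOX promoters were CpG-rich (16.5% to 43.8%), against 21.2% of all.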

Other observations

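The strongest peaks of the HOXA and HOXB windows were short. Of the 31 peaks, 4 were under 200 bp, or 12.9% (Wilson 95% interval 5.13% to 28.9%), against 10.1% of all peaks. They included the peak in the 3′ untranslated region of *HOXA13* (159 bp, fold enrichment 4.20), the one in the *HOXB3* intron (151 bp, 3.86) and the one before *HOXA4* (196 bp, 2.55). In the whole list, 32.8% of the 6052 peaks under 200 bp had a fold enrichment of at least 3.5, against 19.1% of the others. The shortest length in the list is 151 bp, and 1837 peaks have it. The paper's reporting summary gives the same 151 bp as the extension size set for the peak caller. Whether these short regions differ in kind from the long peaks over *HOXA5*, *HOXB7* and *HOXC4* was not tested.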
